A study of Mus musculus with 8 samples.

Results

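Wnt ligands, Frizzled receptors and 2 families of secreted Wnt inhibitors were examined in the medial prefrontal cortex (mPFC) of adult male mice of the inbred strain C3H/HeN, each hybridised to its own single-colour microarray. Members were taken by gene name from the array annotation, which gave 37 genes (19 Wnt, 10 Fzd, 4 Sfrp and 4 Dkk) on 44 of 55681 probes, and the brightest probe of each gene stood for it. The 4 MS mice had been separated from the dam every day between postnatal days 2 and 14 while the dam underwent chronic unpredictable stress, and the 4 control mice had not. Both groups were weaned at postnatal day 21, were tested in operant cages for palatable food as adults, and were fasted before they were killed. Each mouse is called by its group and label number, as in control 8.4. The number before the point is shared by 3 controls and by a different 3 MS mice, and if it marks a litter these mice are not fully independent.

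Wnt proteins are secreted, lipid-modified ligands that bind Frizzled receptors on nearby cells. In the canonical branch, the ligand brings a Frizzled together with the co-receptor Lrp5 or Lrp6, beta-catenin (Ctnnb1) escapes degradation, and TCF/LEF factors switch on targets such as Axin2. Other branches act on cell polarity and on calcium. Secreted Frizzled-related proteins (Sfrp) bind Wnt ligands outside the cell, and Dickkopf proteins (Dkk) act at the co-receptors. In the brain, the pathway patterns the forebrain before birth and takes part in synapse formation and vascular development later.

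The promoters of Wnt2 and of the tested members with the widest spread between mice (Wnt6, Fzd5 and Sfrp5) are printed here. They show the sequence that lies before each start site. Each is the 250 bases upstream of the gene's start in RefSeq (build GRCm38.p6), 5′ to 3′ on the gene's strand, with GC boxes (GGGCGG on either strand, the letters bound by Sp1-type factors) in capitals.
Wnt2, chr6:18030446-18030695 (minus strand): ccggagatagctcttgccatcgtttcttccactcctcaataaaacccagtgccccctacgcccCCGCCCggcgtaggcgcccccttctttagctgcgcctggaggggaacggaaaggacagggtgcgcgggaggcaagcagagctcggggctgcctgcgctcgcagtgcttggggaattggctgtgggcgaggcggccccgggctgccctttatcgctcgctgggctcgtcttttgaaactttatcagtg
Wnt6, chr1:74771642-74771891 (plus strand): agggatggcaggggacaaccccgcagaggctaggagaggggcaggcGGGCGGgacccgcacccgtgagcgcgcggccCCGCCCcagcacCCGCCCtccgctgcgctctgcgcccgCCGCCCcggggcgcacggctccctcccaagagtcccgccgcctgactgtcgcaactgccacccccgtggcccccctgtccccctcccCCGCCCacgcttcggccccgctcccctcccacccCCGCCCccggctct
Fzd5, chr1:64737751-64738000 (minus strand): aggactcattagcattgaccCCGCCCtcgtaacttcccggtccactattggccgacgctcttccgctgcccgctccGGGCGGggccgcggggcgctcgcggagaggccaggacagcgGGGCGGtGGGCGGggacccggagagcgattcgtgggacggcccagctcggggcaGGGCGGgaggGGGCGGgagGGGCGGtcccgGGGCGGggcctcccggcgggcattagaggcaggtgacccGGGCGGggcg
Sfrp5, chr19:42202253-42202502 (minus strand): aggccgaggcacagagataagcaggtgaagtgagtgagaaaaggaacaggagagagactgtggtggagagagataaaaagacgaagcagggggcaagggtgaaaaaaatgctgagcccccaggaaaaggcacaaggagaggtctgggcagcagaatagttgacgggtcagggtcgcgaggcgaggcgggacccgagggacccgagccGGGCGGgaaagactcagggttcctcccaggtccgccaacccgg
The promoter table matched 25 of the 37 members by symbol, with 28 promoters. A GC box occurred in 20 of these 28, against 32.7% of all 32851 promoters in the table. A TCF/LEF core (CTTTG followed by AT, TT, AA or TA, either strand) occurred in 4 of 28, against 14.8% of all promoters, and TATAAA in 4 of 28, against 12.4%. The printed promoters hold 1 GC box in Wnt2, 6 in Wnt6, 9 in Fzd5 and 1 in Sfrp5. None of these 4 windows holds one of the TCF/LEF cores or TATAAA, which says only that these letters are not in it.

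Most of the family was measurable in the mPFC of both groups. Of the 37 members, 30 gave a signal well above background in all 8 mice, and 31 met the criterion for testing, which required a signal well above background in every mouse of the control group, of the MS group, or of both. All 10 Frizzled receptors and all 4 Sfrp genes met it, as did 15 of 19 Wnt ligands and 2 of 4 Dkk genes. Wnt2b, Wnt3a, Wnt8a and Dkk1 reached that level in no mouse, Dkk4 was so only in MS 5.3, and Wnt8b only in control 8.5 and MS 5.3. Wnt2 met the criterion through the controls alone, being well above background on 4 control and 3 MS arrays. Levels below are log2 of the processed signal after subtraction of the 75th percentile of its array, so that 0 is that percentile. Differences are taken between mice for 1 probe. Levels of different probes served only to pick the brightest probe of a gene and to call a probe bright or dim.

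On the whole arrays, 34096 probes were tested and 34266 to 38370 of 55681 probes were well above background per array, with no saturated spot. All 8 listed markers of cortical excitatory neurons were well above background on every array. Control 8.4 stood apart: its median correlation with the other arrays was 0.987, against 0.993 or above for each other array. It was the highest mouse on the list of striatal projection neuron markers, at 1.30 above the list's mean over the 8 mice on the log2 scale, with the other mice between -0.32 and -0.05. It was also the lowest on the cortical excitatory list (-0.52, others -0.05 to 0.21). Markers of the olfactory bulb, which lies next to the dissected region, were high in control 8.4 (2.89), MS 7.6 (1.70) and control 8.5 (1.05) and between -1.30 and -0.78 in the other mice. Meningeal fibroblast markers, genes of the cells of the brain's covering, were low in MS 5.3 (-1.24), control 8.5 (-0.81) and MS 7.2 (-0.57) and between 0.33 and 0.68 in the other mice. In bulk tissue, fewer cells of a type and less RNA per cell cannot be told apart.

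No member of the family differed between MS and control past the threshold. Of 31 members tested, 0 had a limma p under 0.05 after Benjamini-Hochberg adjustment, each with an adjusted p of 0.9996 or above, and 0 of all 34096 probes (0%) passed. In MS, 14 members had a higher and 17 a lower mean, with a median log2 difference (MS minus control) of -0.02, against 0.01 over all probes, of which 54.9% were higher. At an unadjusted p under 0.05 in limma there were 4 members (Wnt2, Wnt10a, Wnt10b and Sfrp1), where 815 of all probes (2.39%) reached it. The values of the MS mice did not overlap those of the controls for 2 members, 1 lower (Wnt2) and 1 higher (Wnt10a), against 1.43% of all probes in either direction, 0.575% lower and 0.853% higher. Wnt2 entered the test only through the controls, the group in which it was higher, so nothing is read from its place in either count. When all 8 arrays had to be well above background, Wnt10a alone remained without overlap. For 28 of the 31 the 95% interval of the difference stayed inside 2-fold, up or down. The 3 with wider intervals were Wnt6, Fzd5 and Sfrp5.

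**Figure D1:**
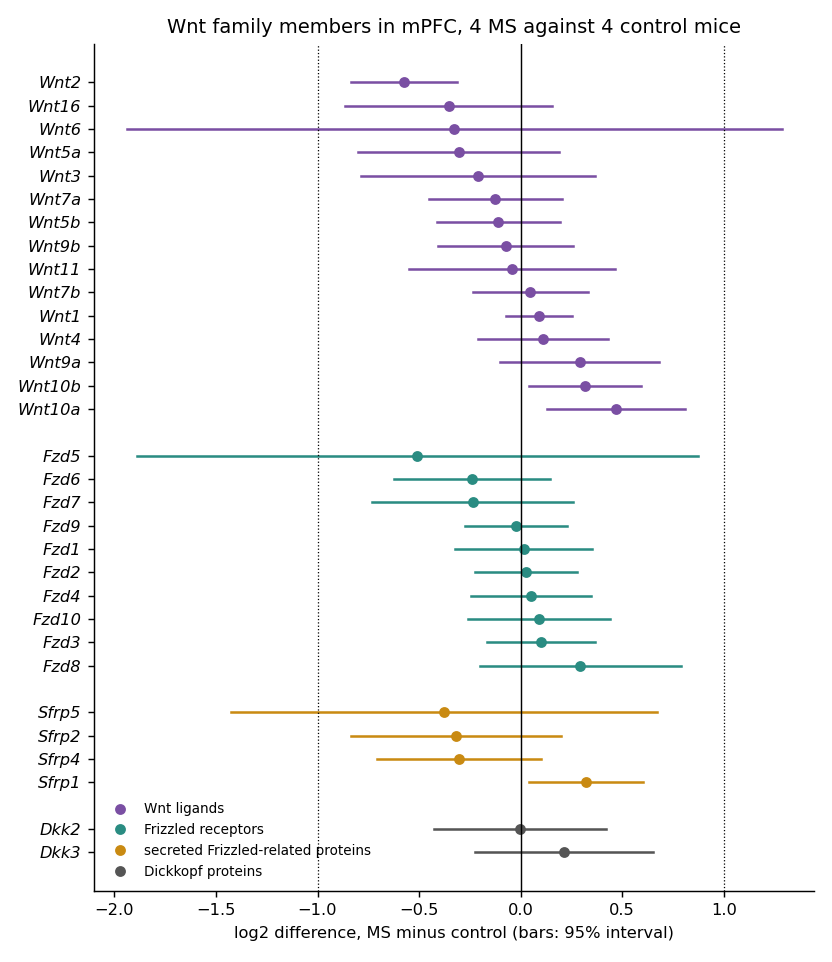
Log2 difference between MS and control (x axis, MS minus control, 4 mice each) for the 31 tested members, grouped by family on the y axis, with points for the difference and bars for the 95% limma interval. Dotted lines mark a 2-fold change, which the bars of Wnt6, Fzd5 and Sfrp5 cross, and no member passed the adjusted threshold.

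Among the Wnt ligands, 6 of 15 had a higher and 9 a lower mean in MS, with a median difference of -0.07. Wnt2, a canonical ligand known from lung and vascular development, had levels of -4.82, -5.12, -4.92 and -5.26 in controls 6.2, 8.2, 8.4 and 8.5 and of -5.54, -5.47, -5.68 and -5.73 in MS 5.3, 7.1, 7.2 and 7.6. All 4 MS mice were below all 4 controls. The difference was -0.57 ± 0.11 (SE), with means of -5.03 ± 0.20 and -5.60 ± 0.12 (SD, n = 4 each). The probe was dim, and the difference was -0.06 after normexp background correction and -0.17 in the authors' normalised table, which differs in signal, normalisation and probes as well. The groups overlapped in both. It lies on chromosome 6 from 17938994 to 17939053 (build mm9, minus strand).

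Wnt10a, a canonical ligand known for its part in tooth, hair and skin development, was bright in all mice. Its level was 1.68, 1.69, 1.05 and 1.52 in controls 6.2, 8.2, 8.4 and 8.5 and 1.77, 1.99, 1.98 and 2.07 in MS 5.3, 7.1, 7.2 and 7.6. The lowest MS mouse was 0.08 above the highest control, and control 8.4 was the lowest of all. The difference was 0.47 ± 0.15 (SE), a ratio of 1.38, and it was 0.32 without control 8.4. The groups stayed apart under normexp correction (0.47) and in the authors' table (0.45), and the difference was 0.28 in the first row of the slide and 0.66 in the second. Its probe lies on chromosome 1 from 74850633 to 74850692 (mm9, plus strand).

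Wnt10b, the closest relative of Wnt10a and an inhibitor of fat cell formation, had levels of -3.19, -3.55, -3.48 and -3.44 in the controls and -3.37, -3.01, -3.08 and -2.92 in the MS mice, in the same order of mice. The groups overlapped through MS 5.3 and control 6.2, and the difference was 0.32 ± 0.12 (SE). Wnt9a, a ligand of joint and skeletal development, had 0.83, 0.82, 0.59 and 0.32 in the controls and 0.93, 1.20, 1.08 and 0.51 in the MS mice. All MS mice but 7.6 were above all controls, and the difference was 0.29 ± 0.17 (SE). Wnt16, a ligand best known from bone, had -4.64, -4.91, -4.32 and -4.67 against -5.01, -4.65, -5.63 and -4.66, a difference of -0.35 ± 0.22 (SE) with overlapping groups.

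Wnt6, a ligand of epithelial and mesodermal development, varied more between mice than any other tested member. Its level was -1.36, -0.82, -0.54 and -3.13 in controls 6.2, 8.2, 8.4 and 8.5 and -3.19, -0.90, -2.49 and -0.59 in MS 5.3, 7.1, 7.2 and 7.6. Control 8.5, MS 5.3 and MS 7.2 were low and the other 5 mice high, so that the groups overlapped over nearly their whole range. The SD over the 8 mice was 1.13, against a median of 0.28 over the tested members. The difference between groups was -0.33 ± 0.71 (SE), and it ran from -0.88 without control 8.5 to 0.14 without MS 5.3 when 1 mouse was left out. The 3 low mice were the same 3 that were low on the meningeal list, whose mean level over its genes, each centred on the 8 mice, ran from -0.81 to 0.53 in controls and from -1.24 to 0.68 in MS, with all 9 of its markers well above background in every mouse. Wnt5b and Fzd10 had the same 3 lowest mice, with ranges over the 8 mice of only 0.56 and 0.71. In Fzd10, control 8.5 (-3.27) was only just below control 6.2 (-3.21). With Wnt6 itself, 3 of 31 members had these 3 mice lowest, against 1.75% of all probes, and nothing particular to the family is read from this count. The part of meningeal tissue in these values was not tested.

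Wnt6 and Wnt10a lie next to each other on chromosome 1, with 19.1 kb between their probes, and their differences were -0.33 and 0.47. Wnt10b and Wnt1 are 21.9 kb apart on chromosome 15, with differences of 0.32 and 0.09. Wnt9b and Wnt3 are 90.1 kb apart on chromosome 11, with differences of -0.07 and -0.21. The order of mice in Wnt6, with 3 low mice, was not that of its neighbour Wnt10a, in which control 8.4 was lowest.

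The remaining ligands had differences between -0.31 (Wnt5a) and 0.11 (Wnt4). Wnt3, a canonical ligand of early axis formation, was higher in control 8.4 (-3.96) than in the other controls (-4.91 to -4.85), with the MS mice between -5.3 and -4.46. Wnt4, a ligand of kidney and gonad development that is also expressed in forebrain, had 2.32, 2.53, 1.95 and 2.20 in the controls and 2.43, 2.43, 2.49 and 2.08 in the MS mice. Its difference was 0.11 ± 0.14 (SE), and a second probe gave 0.25 ± 0.21 (SE) with control 8.4 lowest on both. Wnt7a, a ligand of brain vascular and synapse development, differed by -0.13, and Wnt7b, which acts with it on brain vessels, by 0.05. Wnt1, which patterns the midbrain, differed by 0.09, Wnt5b by -0.11, Wnt9b by -0.07 and Wnt11 by -0.04. Wnt8b, a forebrain ligand active in the embryonic hippocampal margin, had -7.70, -7.86, -7.95 and -2.57 in the controls. The MS mice had -5.66, -7.92, -8.38 and -7.57. Its probe was well above background in control 8.5 and MS 5.3 and not in the other 6 mice. The second Wnt8b probe was in no mouse well above background, control 8.5 included.

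The Frizzled receptors showed small differences, 6 of 10 with a higher and 4 with a lower mean in MS and a median of 0.02. Fzd5, a receptor for canonical ligands with a part in eye development, had -5.06, -2.23, -5.28 and -5.01 in controls 6.2, 8.2, 8.4 and 8.5 and -5.05, -5.00, -4.68 and -4.87 in the MS mice. Control 8.2 alone was high, and the other 7 mice lay within 0.59 of each other. The difference was -0.51 ± 0.61 (SE), and it was 0.21 without control 8.2. A second Fzd5 probe, 2.5 kb away by its coordinates on chromosome 1, was in no mouse well above background and had -7.06 in control 8.2, within the range of the other mice. Fzd8, a receptor of forebrain progenitors, had -3.71, -3.93, -4.25 and -3.95 against -4.15, -3.34, -3.24 and -3.94, a difference of 0.29 ± 0.22 (SE) with overlapping groups.

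Other receptors lay closer to 0. Fzd6, which is best known for hair and tissue polarity, differed by -0.24 ± 0.17 (SE) and Fzd7 by -0.24 ± 0.22, while a second, dimmer Fzd7 probe gave 0.03 ± 0.26. Fzd3, a receptor needed for axon tracts, differed by 0.10, and Fzd4, the receptor for norrin in retinal and brain vessels, by 0.05. Fzd1, Fzd2, Fzd9 and Fzd10 differed by 0.01, 0.03, -0.02 and 0.09. For 9 of the 10 receptors, all except Fzd5, the 95% interval stayed inside 2-fold.

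Of the secreted Frizzled-related proteins, 3 of 4 had a lower mean in MS and Sfrp1 a higher one. Sfrp1, which is also known as an inhibitor of the sheddase Adam10 in brain, had -1.38, -1.16, -1.58 and -1.45 in controls 6.2, 8.2, 8.4 and 8.5 and -1.22, -1.12, -1.16 and -0.79 in the MS mice. The groups overlapped through control 8.2, and the difference was 0.32 ± 0.12 (SE). Sfrp4, which is known from bone, had -2.43, -2.16, -1.67 and -2.43 against -2.64, -2.57, -2.48 and -2.23, a difference of -0.30 ± 0.18 (SE) with overlapping groups. Sfrp5, an inhibitor known from adipose tissue, had -4.01, -3.76, -2.0 and -4.34 against -4.06, -4.14, -4.03 and -3.40. Control 8.4 was highest and MS 7.6 next. The difference was -0.38 ± 0.46 (SE), and it was 0.13 without control 8.4. Sfrp2 differed by -0.32 ± 0.23 (SE). Without control 8.4, which was highest of all mice for Sfrp2, Sfrp4 and Sfrp5, the differences of Sfrp2 and Sfrp4 were -0.12 and -0.14.

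Of the Dickkopf genes, Dkk3, a divergent member that neurons of the cortex express, had 5.82, 5.88, 4.95 and 5.69 in controls 6.2, 8.2, 8.4 and 8.5 and 5.83, 5.89, 5.79 and 5.68 in the MS mice. Control 8.4 was low and the other 7 mice were within 0.21 of each other. The difference of 0.21 ± 0.19 (SE) was 0.0021 without that mouse. Dkk2, which can activate or inhibit the pathway by context, differed by -0.0023 ± 0.19 (SE).

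**Figure D2:**
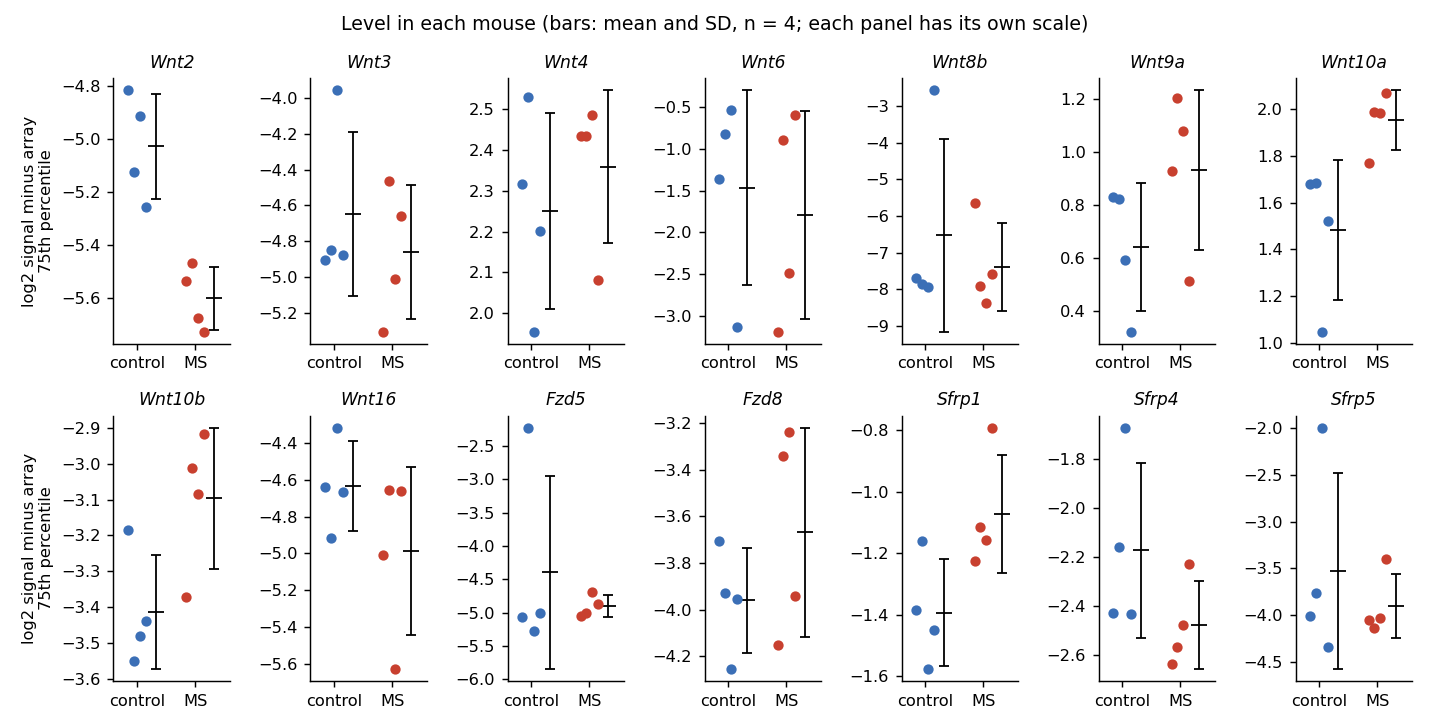
Level of 14 members in each mouse (y axis, log2 signal minus the array's 75th percentile, own scale per panel), with control mice in blue, MS mice in red (4 each) and bars for the mean and SD. Wnt2 and Wnt10a show no overlap between groups, while single high mice stand out in Fzd5 (-2.23), Sfrp5 (-2.0) and Wnt8b (-2.57, with 6 mice not well above background).

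Levels of the members were also set beside the olfactory bulb list, on which 3 mice were high. This list had 7 of its 8 markers well above background in every mouse, and Eomes was so on 2 arrays of each group. Its mean level over the tested genes, each centred on the 8 mice, ran from -1.24 to 2.89 in controls and from -1.30 to 1.70 in MS. Wnt5a, a ligand of the non-canonical branches, was highest in control 8.4 (0.24), MS 7.6 (-0.02) and control 8.5 (-0.19), with the other mice between -0.81 and -0.39. Wnt7a was highest in the same 3 mice (-0.34, -0.42 and -0.66), although control 8.5 was only 0.04 above the next mouse. These were 2 of 31 members, against 4.06% of all probes, and nothing particular to the family is read from these counts. Dkk3, Wnt4 and Wnt9a had the same 3 mice as their lowest, 3 of 31 members against 3.58% of all probes, and the second Wnt4 probe did too. Sfrp5 and Wnt3 were high in control 8.4, and control 8.5 was not among their 3 highest mice. The part of neighbouring tissue in these levels was not tested. Without those 3 mice, 0 members passed the threshold, and the differences of Wnt5a, Wnt10a and Dkk3 were -0.23, 0.23 and -0.01.

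**Figure D3:**
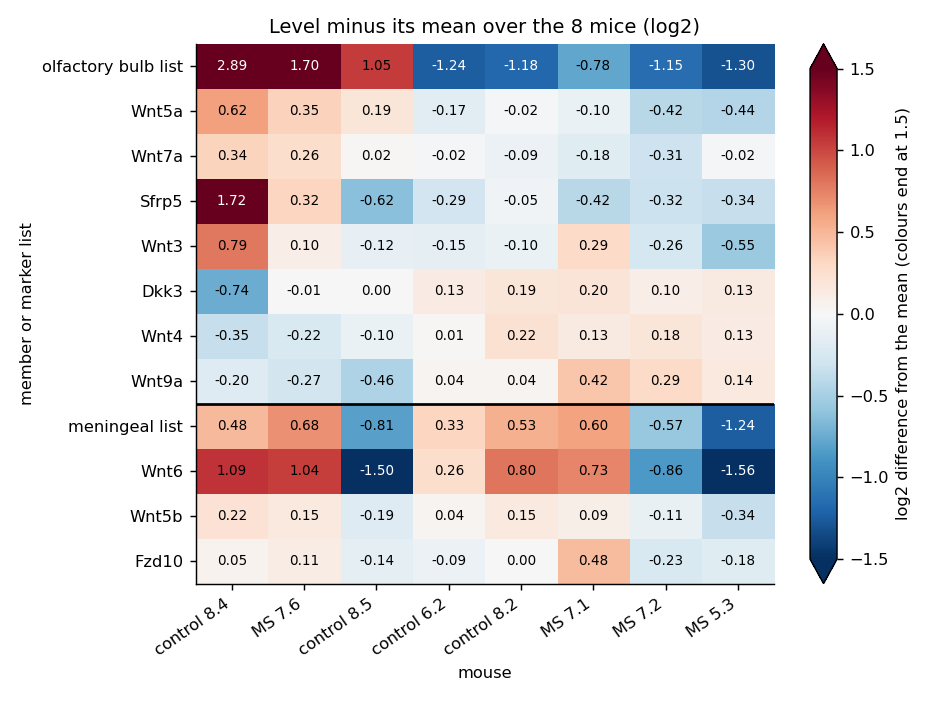
Level of 10 members and of 2 marker lists in each mouse, minus the mean of the 8 mice (colour and printed value, log2, colours end at 1.5). Mice are in columns, with the 3 high on the olfactory bulb list first, and members are in rows. Wnt5a and Wnt7a are highest and Dkk3, Wnt4 and Wnt9a lowest in the 3 mice high on the olfactory bulb list, and Wnt6 is lowest in the 3 mice low on the meningeal list.

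The other genes of the pathway were taken from 7 lists with 99 genes in all, of which 92 were tested. In MS 44 had a higher and 48 a lower mean, 0 passed the adjusted threshold in limma (background 0%), 3 had an unadjusted p under 0.05 (background 2.39%), and the median difference was -0.0048. The groups did not overlap for 2 of them, against 1.43% of all probes in either direction. Both were higher in MS, against 0.853% of all probes. Rspo1, a secreted activator that stabilises Wnt receptors, had 0.59, 0.41, -0.14 and 0.30 in controls 6.2, 8.2, 8.4 and 8.5 and 0.69, 0.88, 0.78 and 0.68 in the MS mice, a difference of 0.46 ± 0.15 (SE). Mapk8, the kinase Jnk1 of the polarity branch, had -0.30, -0.23, -0.43 and -0.54 against 0.03, -0.22, -0.03 and -0.14, a difference of 0.29 ± 0.10 (SE). The lowest MS mouse was above the highest control by 0.08 for Rspo1 and by 0.01 for Mapk8.

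On the list for secretion, Porcn, Wls and Notum differed by -0.07, -0.01 and 0.03, and Notum is also counted among the targets. Tpst1, an enzyme that sulphates tyrosines, differed by -0.41 ± 0.21 (SE). Its groups overlapped, and its probe was dim, with levels from -5.12 to -3.91. Among co-receptors and receptor regulators, 4 of 14 had a higher and 10 a lower mean. Kremen2, a partner of Dkk proteins, differed by -0.55 ± 0.24 (SE), and its groups overlapped. Its probe was dim, with levels from -5.81 to -4.30. Differences of Kremen2 and Tpst1 after normexp correction were not taken. Lgr6 and Lgr5, receptors of R-spondins, had the widest spread of the pathway. Lgr6 had -5.47, -6.00, -0.11 and -1.49 in the controls and -5.75, -4.87, -5.89 and -1.0 in the MS mice, and Lgr5 had -3.69, -3.73, 1.61 and -0.57 against -3.26, -3.36, -3.11 and 0.40. In both genes control 8.4, MS 7.6 and control 8.5 were the 3 high mice, in that order, the order of the olfactory bulb list. Their differences between groups were -1.11 ± 1.54 and -0.74 ± 1.32 (SE).

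Of the canonical genes chosen for description, Lrp6, Ctnnb1, Lef1 and Axin2 had differences between 0.02 and 0.09. Lrp6, the co-receptor, had 1.19, 1.17, 0.81 and 1.49 in the controls and 1.26, 1.19, 1.13 and 1.16 in the MS mice, a difference of 0.02 ± 0.13 (SE). Ctnnb1 had 3.28 to 3.55 in controls and 3.31 to 3.55 in MS, a difference of 0.03 ± 0.09. Of 23 cytoplasmic genes, 17 had a higher and 6 a lower mean, with a median of 0.04. Lef1, a TCF/LEF factor, differed by 0.05 ± 0.09 (SE). Its relatives Tcf7 and Tcf7l1 differed by -0.39 ± 0.20 and -0.33 ± 0.19, with overlapping groups and with control 8.4 as the highest mouse in both. A further relative, Tcf7l2, ran from -2.72 to -2.26 in controls and from -2.61 to -2.28 in MS. Axin2, the target most often read as an output of the canonical branch, had -2.43 to -2.10 in controls and -2.32 to -1.97 in MS, a difference of 0.09 ± 0.11 (SE). Of the 14 tested targets, 5 had a higher and 9 a lower mean.

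**Figure D4:**
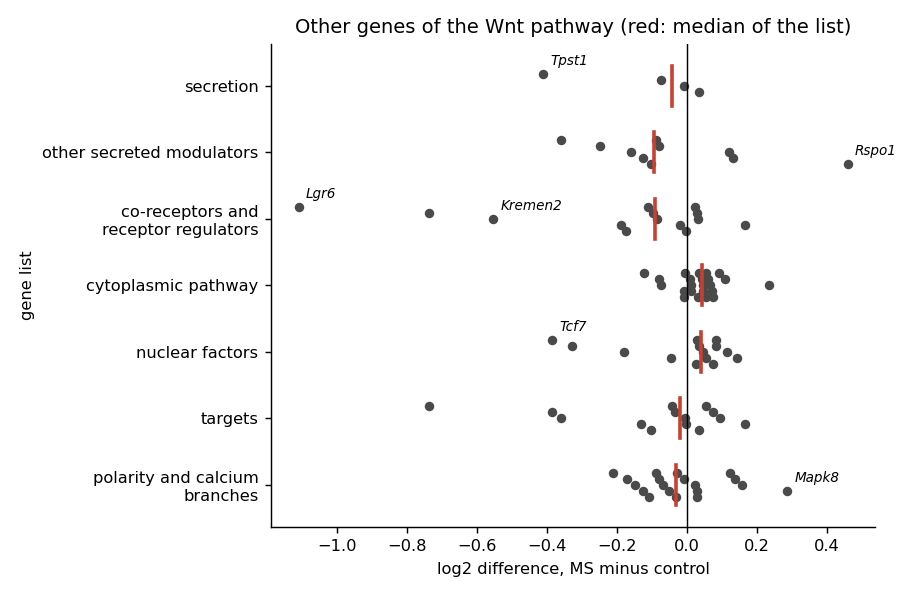
Log2 difference between MS and control (x axis, 4 mice each) for the tested genes of 7 pathway lists (y axis), with a red line at each list's median. Each gene has 1 point in every list that holds it, so a gene on more than 1 list is drawn in each. Most points lie near 0, Lgr6 (-1.11) is farthest to the left and Rspo1 (0.46) farthest to the right.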

How the data were processed

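RNA of the mPFC of 8 male mice, 4 control and 4 MS, was labelled with Cy3 from 200 ng total RNA and hybridised to 1 Agilent array each, all on 1 slide with 1 scan. Either slide row carried 2 control and 2 MS arrays. The scanner files deposited by the authors (Agilent Feature Extraction 10.10.1.1, design 28005 with mm9 probe coordinates per the file headers) hold a processed intensity that had its background subtracted, without normalisation across arrays. Normalised log2 values of 34137 probes, also deposited by the authors, followed the log2 median signal of their own array (correlation of 0.9999 or above) with column medians of 8.532 or 8.533, so that they are neither centred per gene nor reversed, and served as an alternative.

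Spots marked as outliers were removed, spots of a probe averaged, and log2 intensity minus the array's 75th percentile was used. Probes with a signal well above background in every mouse of 1 group or both were fitted by lmFit and eBayes of limma 3.58.1 (two-sided, no covariate) in R 4.3.3 with statmod 1.5.0 and data.table (version 1.17.8), with Benjamini-Hochberg adjustment at 0.05 over all 34096 tested probes. The code of the fit was tried on simulated data with planted changes, which checks the code and not the power at differences as small as those here. Plots used matplotlib 3.10.9 and Python 3.11.15.

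The members, the marker and pathway lists and the rule for genes given by mouse were chosen with earlier results of these data known. Full values are given for members whose groups do not overlap, the 6 with the smallest p and the 4 largest differences in each direction. They are also given for the 4 with the largest SD over the 8 mice and for those with 1 sample far from its group. Wnt8a, which was in no mouse well above background, was left out. A list level is the average of its tested genes, each centred on its mean across mice. The numbers in the labels are not shared between groups, so mice were not paired. Alternatives covered background correction, normalisation, the filter on dim probes, second probes, slide rows, the label number as a block and leaving out mice. The number of arrays limits the precision. Gene names are those of the files, and for all 37 members they equal the RefSeq symbol.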

Additional observations from a re-analysis of the deposited data

Results flagged for a closer look

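Dixon's 95% criterion (gap to the nearest mouse over the range of the group) flags about 1 in 20 groups of normally distributed values. Its share over all probes was not computed, so nothing particular to the family is read from the count that follows. By this criterion, single mice stood far from the rest of their group for 6 of 74 groups of member values checked. These included Wnt3 in control 8.4 (-3.96, next mouse -4.85), Wnt4 in MS 7.6 (2.08, next 2.43), Wnt8b in control 8.5 (-2.57, next -7.70), Fzd5 in control 8.2 (-2.23, next -5.01) and Sfrp5 in MS 7.6 (-3.40, next -4.03), all log2 levels relative to the array's 75th percentile. The sixth was Wnt8a in control 6.2 (-6.76, next -7.94), where no mouse was well above background. Of the first 5, 3 came from mice high on the olfactory bulb list (control 8.4 and MS 7.6), and Wnt8b from the third such mouse. For Wnt8b, however, control 8.4 (-7.95) and MS 7.6 (-7.57) were not well above background. MS 5.3 (-5.66), the lowest mouse on that list, was. A link of these values to neighbouring tissue was not tested. The high values of Fzd5 and Wnt8b were each seen on 1 probe only, the second probe of each gene being in no mouse well above background.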

How the results depend on the processing

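Under all 20 alternatives, 2 of them chosen after seeing the data (leaving out the 3 mice highest on the olfactory bulb list, and the 3 lowest on the meningeal list), 0 members and 0 other pathway genes passed the adjusted threshold in limma, and the median difference of the members ran from -0.11 to 0.06. The number of members whose groups did not overlap was 1 (Wnt10a) with normexp correction (1.04% of all probes), with the authors' table (1.56%) and when all 8 arrays had to be well above background (1.32%). It was 9 within slide row 1 (27.7% of all probes) and 12 within slide row 2 (30.7%), where 2 mice stood against 2, and 2 to 5 when 1 mouse was left out, with 2.5% to 6.18% of all probes (4 without control 6.2 or MS 7.6, with 3.62% and 3.77% of all probes, and 5 without MS 5.3, with 5.15%). It was 6 without the 3 mice high on the olfactory bulb list (11.5% of all probes) and 8 without the 3 low on the meningeal list (16.9%). Wnt10a and Wnt2 were among them in each setting that left out mice. Of the 31 members, 15 kept their sign in all alternatives. Among those named by the rule, changes of sign occurred for Wnt3 (0.0059 within slide row 1, 0.018 without control 8.4, 0.012 without the 3 mice low on the meningeal list), Wnt6 (0.20 within row 1, 0.14 without MS 5.3, 0.16 without those 3 mice), Fzd5 (0.0052 within row 1, 0.21 without control 8.2), Sfrp5 (0.078 within row 1, 0.13 without control 8.4) and Wnt4 (-0.0093 without the 3 mice low on the meningeal list). The cause was not tested. The other members that changed sign in some alternative were Wnt7b, Wnt9b, Wnt11, Fzd1, Fzd2, Fzd4, Fzd9, Fzd10, Sfrp2, Dkk2 and Dkk3. Without control 8.4 the difference of 21 moved by over 1.5 times and that of 3 changed sign. With the number before the point in the labels as a random block (consensus correlation -0.22), 0 members passed in limma, with a smallest adjusted p of 0.42. Each label number occurs in only 1 group, so this setting cannot separate an effect of the number from that of MS. A negative correlation also narrows the standard errors, so the smaller adjusted p is not read as stronger evidence. No paired analysis was possible because the groups share no replicate numbers.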
